A study of Mus musculus with 6 samples.

Results

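Superoxide and peroxide removing enzymes were followed in mouse liver, in 3 libraries from livers exposed to DEHP, di(2-ethylhexyl) phthalate, a plasticizer, and 3 libraries from control livers without DEHP. Messenger RNA was selected by its poly(A) tail and sequenced as paired ends, and the deposited values are whole-number read counts per gene. The labels name no strain, sex, age, dose or duration, and the columns of the exposed libraries carry the word High. Nothing in them says that the libraries of a group are separate animals; p-values here therefore reflect library-to-library spread alone, which may be technical. The enzymes were chosen by name, with earlier results of these data known. They are the superoxide dismutases Sod1, Sod2 and Sod3, catalase (Cat), the glutathione peroxidases Gpx1, Gpx3 and Gpx4, and the peroxiredoxins Prdx1, Prdx5 and Prdx6. Of these 10, 9 have a row under their symbol among the 41096 named rows of the table, and all 9 were among the 12468 genes tested. Sod2 has no row under its symbol, and 3 loci without a gene name are described as the Sod2 protein in the deposited table; they are given apart from the 9.

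Superoxide is made by the respiratory chain and by oxidases, and superoxide dismutases turn it into hydrogen peroxide. Catalase, which sits mostly in peroxisomes, splits hydrogen peroxide into water and oxygen, while glutathione peroxidases reduce peroxides with glutathione and most peroxiredoxins do so with thioredoxin. Hepatocytes are rich in peroxisomes and mitochondria and hold large amounts of these enzymes, and phthalates that activate the receptor PPARalpha in rodent liver raise enzymes of peroxisomal fatty acid oxidation, a source of hydrogen peroxide.

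Total counts were 10410098 to 12405044 in the exposed libraries and 12001969 to 14229803 in the controls. The hepatocyte marker Alb, serum albumin, held 757743 to 1219779 counts in every library. Among 12468 genes tested with edgeR's quasi-likelihood test, 9 passed a Benjamini-Hochberg adjusted p of 0.05, which is 0.0722% (0.0561% higher and 0.016% lower in exposed livers), and 13.1% had an unadjusted p under 0.05 (6.11% higher, 6.97% lower). In 17.7% of all genes the exposed and control libraries did not overlap (9.17% higher, 8.57% lower). The controls were not alike. Summed over 18 interferon-stimulated genes with a row, the CPM (counts scaled to a library size of 1e+06) came to 341 to 402 in exposed livers. Control replicates 1 and 2 reached 4199 and 3374 CPM, and control replicate 3 had 369 CPM. In bulk tissue, fewer cells of a type and less RNA per cell cannot be told apart.

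Among the 9 enzymes, Sod3 fell in exposed livers, and 1 of 9 members, Sod3, passed the adjusted threshold, beside the 0.0722% of all genes. Gpx1, Cat and Prdx6 had higher values in every exposed library than in any control but did not pass, and the other 5 overlapped between the groups. So 4 of 9 members had groups that did not overlap, 3 of them higher and 1 lower in exposed livers, beside the 17.7% of all genes. At an unadjusted p under 0.05 there were 3 of 9, Gpx1 and Prdx6 higher and Sod3 lower, beside the 13.1% of all genes. The median log2 fold change of exposed over control was 0.16 over the 9 members and -0.03 over all genes tested, with 6 of the 9 above 0. Because the enzymes were chosen with earlier results of these data known, these figures do not test them as a set.

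**Figure D1:**
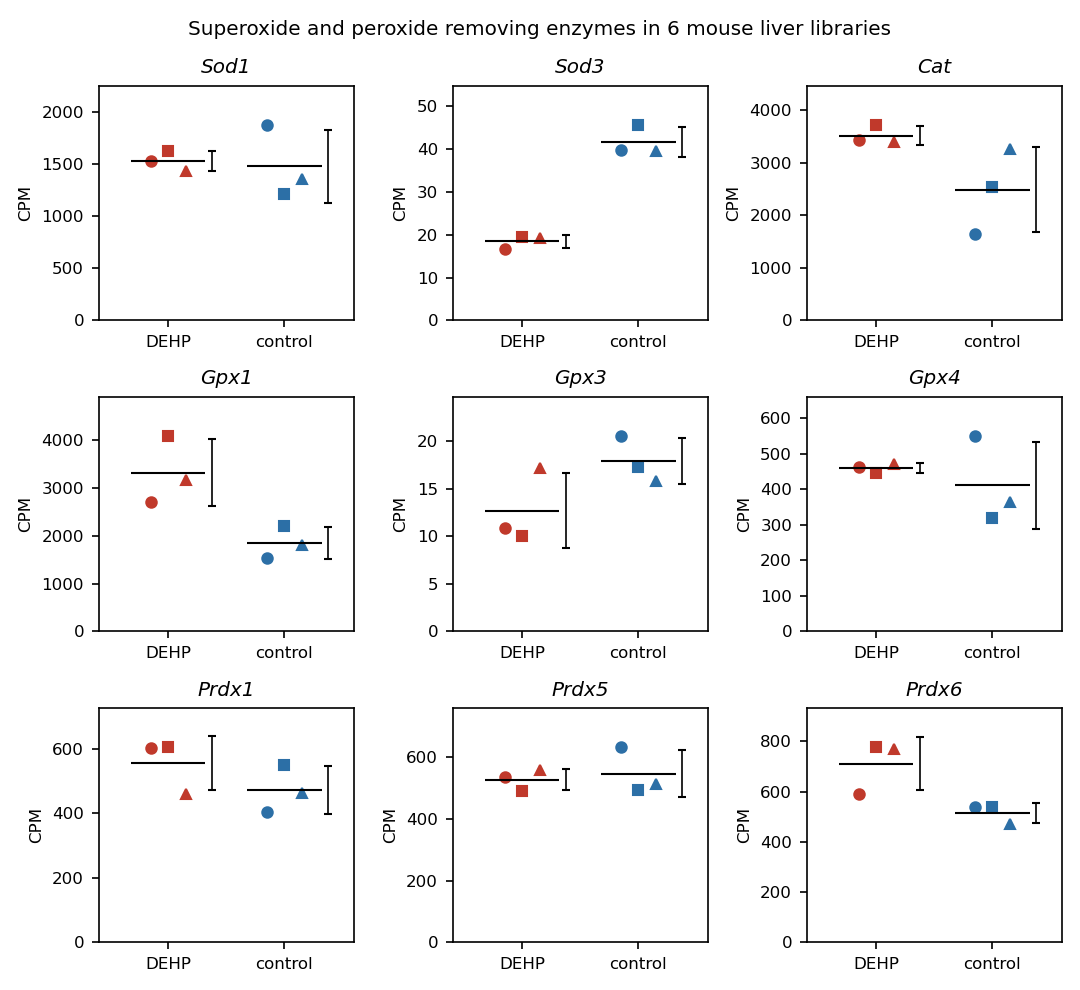
Library-scaled CPM (y axis from 0) of the 9 enzymes in DEHP-exposed livers (left) and control livers (right), with circles, squares and triangles for replicates 1, 2 and 3, the horizontal line for the mean and the bar beside it for ± 1 SD (n = 3). The 3 exposed libraries of Sod3 lie between 16.7 and 19.5 CPM, below all 3 controls.

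The extracellular dismutase Sod3 is secreted and holds to heparan sulfate of the matrix and cell surfaces, where it protects extracellular fluid and vessel walls. Its row held 165, 224 and 226 counts in exposed replicates 1 to 3, against 562, 577 and 446 in control replicates 1 to 3. Scaled to library size, Sod3 had 16.7, 19.5 and 19.2 CPM in exposed livers, against 39.8, 45.6 and 39.5 CPM in control livers. Every exposed library was below every control, and the libraries of each group lay close together. Sod3 averaged 18.5 ± 1.55 CPM in exposed livers and 41.7 ± 3.42 CPM in controls (SD, n = 3 each), a log2 fold change of -1.17 ± 0.19 (SE, edgeR adjusted p = 0.0422), or 0.444-fold with a 95% interval of 0.332 to 0.593. Sod3 ranked 9th by p among all genes tested. The row lies on chromosome 5 from 53472655 to 53480341 on the plus strand (positions as the table gives them, with gene identifiers of the C57BL/6NJ strain annotation) and is annotated as protein-coding.

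The size of the Sod3 difference moved little with the processing while its call did not hold throughout. Over 16 other settings its log2 fold change ran from -1.20 to -1.08, and the adjusted p from 1.95e-04 to 0.427. It passed in 6 of these 16 and missed the threshold in 10. It passed with DESeq2 (adjusted p = 2.57e-04), with edgeR and no filter on low counts (1.95e-04) and without control replicate 3 (0.00630). These settings called 2.22%, 2.41% and 3.1% of all genes, beside 0.0722% with edgeR and all libraries. Sod3 also passed, near the threshold, with RLE scaling (edgeR adjusted p = 0.0481) and with a filter on mean CPM (0.0481). With rows described as a member summed, the edgeR adjusted p was 0.0421. It missed with limma-voom (adjusted p = 0.105), with a fit that is not robust (0.0620), and with rows without a gene name added (0.0529). Leaving out exposed replicate 1, 2 or 3 gave adjusted p = 0.0818, 0.169 and 0.277, and leaving out control replicate 1 or 2 gave 0.119 and 0.225. Without control replicates 1 and 2 together, which held the high interferon-stimulated genes, the log2 fold change was -1.08 ± 0.29 (edgeR adjusted p = 0.427, with 1 control left whose spread is taken from the exposed livers). Control replicate 3, with interferon-stimulated genes at the level of exposed livers, had 39.5 CPM of Sod3, beside 39.8 CPM in control replicate 1.

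**Figure D2:**
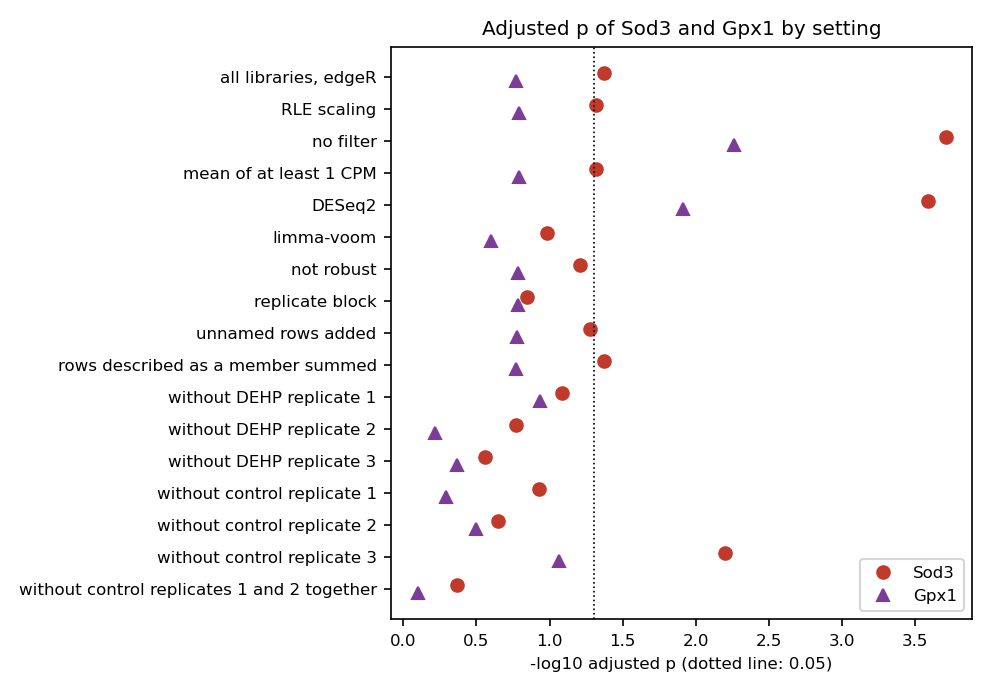
Minus log10 of the adjusted p (x axis) of Sod3 (circles) and Gpx1 (triangles) under each setting (rows), the top row being the edgeR test of all libraries. Points right of the dotted line pass 0.05, as Sod3 does in the top row and in 6 of the 16 others, and Gpx1 in 2 of the 16.

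Sod1, the copper-zinc enzyme of the cytosol, was the most abundant member per length. It had 1529, 1625 and 1434 CPM in exposed livers, against 1875, 1211 and 1355 CPM in control livers, so the controls spanned all 3 exposed libraries. The log2 fold change was 0.05 ± 0.21 (SE, edgeR adjusted p = 0.949), and its 95% interval of 0.757-fold to 1.41-fold leaves out a fall of the size measured for Sod3. Its sign turned to -0.076 without control replicate 2. A row annotated as a processed pseudogene on chromosome 6 and described as Sod1 held 135 to 233 counts in exposed livers and 145 to 225 in controls; adding it left the log2 fold change at 0.05.

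The manganese enzyme Sod2 works in the mitochondrial matrix. The 3 unnamed loci described as Sod2 in the deposited table lie on chromosome 17 from 11102925 to 11105683 (plus strand) and, as a pair on opposite strands that overlap by 1702 bases, on an unplaced scaffold. Together they held 831, 1174 and 1357 counts in exposed replicates 1 to 3, against 1016, 1070 and 1001 in control replicates 1 to 3. Whether they are the whole of Sod2 was not tested, and without a statement on strand the reads of the overlapping pair cannot be told apart. Summed into 1 row, they had 84.1, 102 and 115 CPM in exposed livers, against 72.0, 84.5 and 88.7 CPM in control livers. The ranges overlapped, and the log2 fold change was 0.30 ± 0.19 (SE, edgeR adjusted p = 0.542; 95% interval -0.12 to 0.72). The loci taken singly had 0.38 ± 0.26, 0.20 ± 0.19 and 0.35 ± 0.32 (SE, edgeR adjusted p = 0.579, 0.707 and 0.685), the chromosome 17 locus given in the first place.

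Per length, Sod1 and Sod3 differed by orders of magnitude. In TPM (counts divided by the gene length of the table and scaled to a common sum), Sod1 had 4724 ± 109 in exposed livers and 4634 ± 921 in controls, and Sod3 had 9.88 ± 0.934 in exposed livers and 22.7 ± 3.12 in controls (SD, n = 3 each). Sod3 therefore made up 0.188%, 0.207% and 0.231% of the summed TPM of Sod1 and Sod3 in exposed livers, against 0.366%, 0.646% and 0.502% in controls. This share does not depend on library scaling, and all 3 exposed libraries lay below all 3 control libraries (log2 difference -1.24, two-sided exact permutation p = 0.1, the smallest that 3 against 3 allows, and 0.2 adjusted over 6 such quantities). The sum of Sod1 and Sod3 stood at 4733 ± 109 TPM in exposed livers and 4657 ± 920 TPM in controls (exact permutation p = 1).

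Catalase had 3420, 3711 and 3389 CPM in exposed livers, against 1650, 2541 and 3257 CPM in control livers. The groups did not overlap, but control replicate 3 lay just under the lowest exposed library while control replicate 1 was far below. The means were 3507 ± 178 and 2483 ± 805 CPM (SD, n = 3 each, exposed livers given first), a log2 fold change of 0.50 ± 0.24 (SE, edgeR adjusted p = 0.393; 95% interval -0.01 to 1.01). Leaving out control replicate 1 gave 0.28 (adjusted p = 0.764), leaving out control replicate 3 gave 0.77 (0.107), and the value was 0.12 without control replicates 1 and 2 together. The row spans chromosome 2 from 108976734 to 109007829 on the minus strand, in the coordinates of the table.

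Gpx1 reduces hydrogen peroxide in the cytosol and mitochondria, and Gpx3 is a plasma form secreted mostly by kidney. Gpx4 reduces lipid peroxides within membranes and so protects cells from ferroptosis. All 3 carry selenocysteine, which is written by a TGA codon that would otherwise end the protein. The stretches that encode this catalytic residue are shown because it is what these 3 members share and the other members lack. Codon numbers count along the transcripts Gpx1-201, Gpx3-201 and Gpx4-201 alone. Which transcripts of these genes the libraries hold was not tested. In the GENCODE M21 transcripts on GRCm38, each reading frame held 1 TGA before its stop codon, in capitals here with 12 bases on each side:
Gpx1 (codon 47, chr9:108339451-108339453, plus strand): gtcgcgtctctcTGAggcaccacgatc
Gpx3 (codon 73, chr11:54907256-54907258, plus strand): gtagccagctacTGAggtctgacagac
Gpx4 (codon 129, chr10:80054737-80054739, plus strand): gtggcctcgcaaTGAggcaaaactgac

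None of the 3 selenium enzymes passed the adjusted threshold with all libraries. Gpx1 had 2703, 4083 and 3160 CPM in exposed livers, against 1527, 2194 and 1804 CPM in control livers, with no overlap. Its means were 3315 ± 703 CPM in exposed livers and 1842 ± 335 CPM in controls (SD, n = 3 each), a log2 fold change of 0.85 ± 0.22 (SE, edgeR adjusted p = 0.170), or 1.80-fold with a 95% interval of 1.29 to 2.51. Gpx1 ranked 137th by p. Over the 16 other settings its log2 fold change ran from 0.68 to 1.00, and it passed in 2 of them, DESeq2 (adjusted p = 0.0123) and edgeR with no filter (0.00546), which called 2.22% and 2.41% of all genes. The row spans chromosome 9 from 113285315 to 113286755 on the plus strand.

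Gpx3 was sparse, with 107, 115 and 203 counts in exposed livers and 290, 219 and 179 in controls. It had 10.8, 10.03 and 17.2 CPM in exposed livers, against 20.6, 17.3 and 15.9 CPM in control livers. Exposed replicate 3 lay among the controls, and the log2 fold change of -0.49 ± 0.26 (SE, edgeR adjusted p = 0.437; 95% interval -1.05 to 0.06) was -0.78 without that library and -0.34 without exposed replicate 2. Of 7 kidney tubule markers, Slc12a1, Aqp2 and Slc22a6 were at 0 in all libraries and the others held at most 3 counts, so kidney RNA was at or near 0 here. Gpx4 had 461, 445 and 471 CPM in exposed livers, against 549, 319 and 364 CPM in control livers. The exposed libraries lay within the range of the controls (log2 fold change 0.16 ± 0.22, edgeR adjusted p = 0.800), and leaving out control replicate 1 gave 0.43, against 0.0095 on leaving out control replicate 2.

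The summed TPM of Gpx1, Gpx3 and Gpx4 was 4265, 5961 and 5164 in exposed livers, against 2728, 3706 and 2918 in controls. The groups did not overlap, and most of this sum was Gpx1 (log2 difference 0.72, exact permutation p = 0.1, the smallest possible, adjusted 0.2). The ratio of Gpx1 to Gpx4 TPM was 7.01, 10.99 and 8.02 in exposed livers and 3.33, 8.24 and 5.93 in controls, with overlap (log2 difference 0.64, exact permutation p = 0.3, adjusted 0.45). The difference was 0.29 without control replicate 1.

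Promoters of catalase and Gpx1 are shown because both are abundant members whose exposed libraries all exceeded their controls. RefSeq windows on GRCm38.p6, from 250 bases before to 50 after the start, were given for 8 of the 10 enzymes, 11 windows in all; Sod3 and Prdx6 had no entry. Both strands were searched for CCAAT (the CCAAT box), GGGCGG (the GC box), TATAAA (the TATA box), TGACNNNGC (the antioxidant response element bound by NRF2) and the DR1 element, a direct repeat of the kind PPARalpha binds. CCAAT and GGGCGG matches on either strand are in capitals:
Cat (chr2:103485104-103485403, minus strand): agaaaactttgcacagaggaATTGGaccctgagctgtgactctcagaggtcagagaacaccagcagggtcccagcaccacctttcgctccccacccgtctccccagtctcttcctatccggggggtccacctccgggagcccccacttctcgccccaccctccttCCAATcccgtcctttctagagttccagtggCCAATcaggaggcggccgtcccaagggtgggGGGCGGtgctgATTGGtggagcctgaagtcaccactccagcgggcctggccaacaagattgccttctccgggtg
Gpx1 (chr9:108338830-108339129, plus strand): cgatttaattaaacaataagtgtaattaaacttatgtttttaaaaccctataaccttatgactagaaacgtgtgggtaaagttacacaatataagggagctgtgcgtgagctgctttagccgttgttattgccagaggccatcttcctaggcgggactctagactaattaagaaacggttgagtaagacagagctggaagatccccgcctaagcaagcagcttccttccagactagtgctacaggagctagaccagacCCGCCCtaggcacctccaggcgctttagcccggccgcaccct

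The catalase window held 4 CCAAT matches and 1 GC box, and the Gpx1 window held 0 and 1. Among 32851 windows of all genes, 37.4% held CCAAT and 35.7% the GC box. The antioxidant response element letters occurred once each in the Sod1 and Prdx1 windows and in 12.4% of all windows. TATAAA also occurred once each in the Sod1 and Prdx1 windows and in 13.6% of all windows. The DR1 element was searched only as a perfect repeat, with no mismatch allowed. It had 0 matches in the 11 windows and was held by 13 of the 32851 windows (0.04%). Because nearly all windows lack the perfect repeat, 0 in 11 cannot tell these promoters from others. Whether they hold less perfect repeats of this kind was not tested. These matches describe letters, not bound sites.

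The peroxiredoxins differ in place and chemistry: Prdx1 is mainly cytosolic, Prdx5 is found in mitochondria, peroxisomes and cytosol, and Prdx6 works with a lone catalytic cysteine, uses glutathione and also acts on oxidised phospholipids. Prdx6 had 589, 777 and 768 CPM in exposed livers, against 538, 538 and 470 CPM in control livers. The groups did not overlap, with exposed replicate 1 the nearest to the controls (log2 fold change 0.47 ± 0.19, edgeR adjusted p = 0.344; 95% interval 0.05 to 0.88). Prdx1 had 604, 606 and 459 CPM in exposed livers, against 403, 550 and 464 CPM in control livers. Exposed replicate 3 was lower than a pair of the controls, and the log2 fold change was 0.24 ± 0.20 (SE, edgeR adjusted p = 0.665; 95% interval -0.20 to 0.67). Prdx5 had 535, 490 and 558 CPM in exposed livers, against 633, 493 and 512 CPM in control livers, and these ranges overlapped widely (log2 fold change -0.05 ± 0.19, edgeR adjusted p = 0.942; 95% interval -0.45 to 0.36). The sign of Prdx5 turned to 0.071 without control replicate 1. Its row overlaps Trmt112 on the other strand by 409 bases, and Trmt112 held 200 to 292 counts against the 5283 to 8934 of Prdx5. Summed TPM of Prdx1, Prdx5 and Prdx6 was 1135 to 1193 in exposed livers and 972 to 1130 in controls (log2 difference 0.13, exact permutation p = 0.1, adjusted 0.2). The difference was 0.076 without control replicate 3 and 0.20 with CPM in place of TPM.

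**Figure D3:**
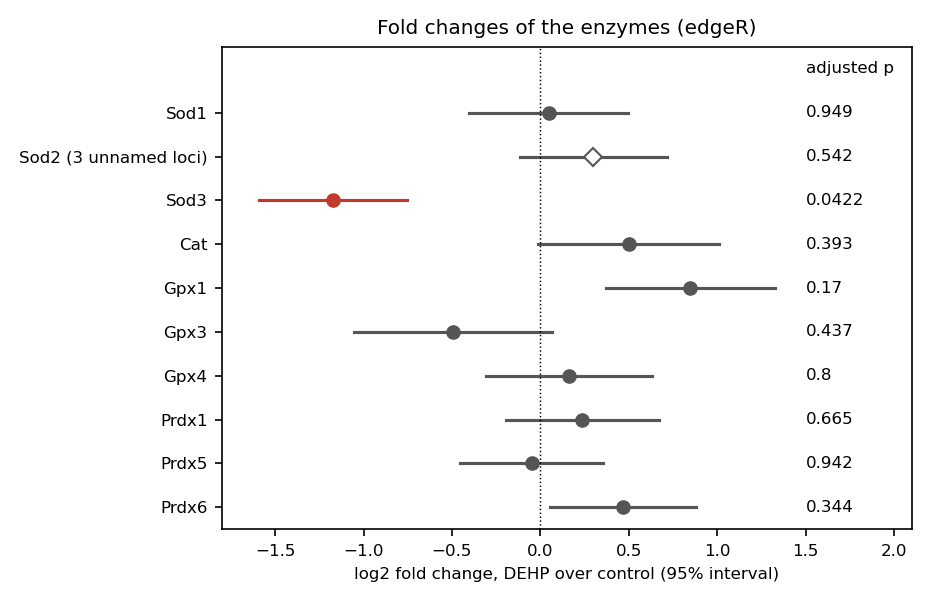
Log2 fold change of exposed over control livers (x axis, points) with 95% intervals (lines) for each enzyme, from edgeR; the open diamond is the sum of 3 unnamed loci described as Sod2, and adjusted p stands at the right. Sod3 at -1.17 is the point whose adjusted p of 0.0422 passes.

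By their means, the order of per-length levels was similar in both groups. Gpx4 and Prdx5 changed places, as did Gpx3 and Sod3. In exposed livers Sod1 (4724 ± 109 TPM) and Gpx1 (4583 ± 866) did not differ beyond their spread, and catalase followed with 2679 ± 71.9 (SD, n = 3). In controls Sod1 (4634 ± 921 TPM) was followed by Gpx1 (2616 ± 614) and catalase (1936 ± 632), and the values of Gpx1 and catalase overlapped. Next in exposed livers came Gpx4 (532 ± 36.9), Prdx5 (494 ± 51.3), Prdx1 (365 ± 43.1) and Prdx6 (296 ± 47.1), and in controls Prdx5 (518 ± 56.0), Gpx4 (481 ± 125), Prdx1 (318 ± 66.6) and Prdx6 (219 ± 23.9). Gpx3 (14.1 ± 4.99 in exposed livers, 20.1 ± 2.50 in controls) and Sod3 were the lowest, and in controls these did not differ beyond their spread. Together the 9 members took 1.27%, 1.47% and 1.37% of all TPM in exposed livers, against 1.07%, 1.10% and 1.05% in controls, and Gpx1 and catalase account for most of that gap. Sod1 made up 37.0%, 33.0% and 33.8% of the members' summed TPM in exposed livers, against 53.0%, 36.8% and 39.5% in controls. Gpx1 made up 29.3%, 37.1% and 33.4% in exposed livers, against 19.4%, 29.9% and 23.6% in controls. For both genes the shares of exposed and control livers overlapped.

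**Figure D4:**
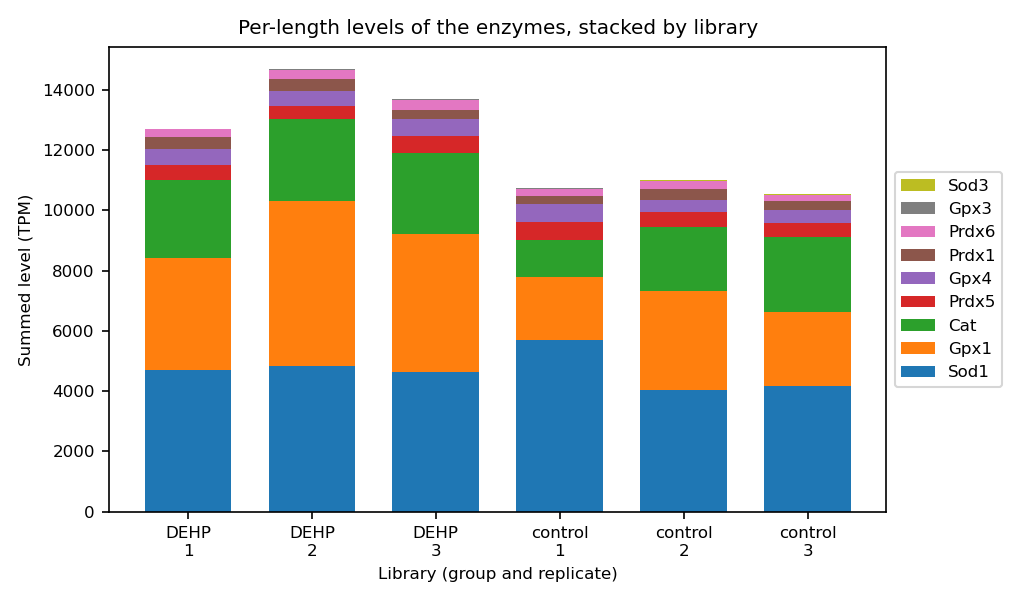
Per-length level in TPM (y axis) of the 9 enzymes, stacked in each of the 6 libraries (x axis, exposed livers left, controls right). Sod1, Gpx1 and catalase make up most of each bar, and the Gpx1 segment is larger in the 3 exposed livers; Sod3 and Gpx3 are too small to see.

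Around these enzymes, 86 genes of 7 related lists were tested. With edgeR, 0 of the 86 passed after adjustment over the whole table. At an unadjusted p under 0.05, 10 were higher and 7 lower, beside 13.1% of all genes, and 14 higher and 7 lower had groups that did not overlap, beside 17.7% of all genes. Among the other peroxiredoxins and glutathione peroxidases, 4 of 7 with a row were tested. Prdx3, the peroxiredoxin of mitochondria, had 108, 132 and 121 CPM in exposed livers, against 75.3, 92.0 and 90.3 CPM in control livers (log2 fold change 0.49 ± 0.19, edgeR adjusted p = 0.313). Prdx2, the cytosolic form abundant in red cells, had 184 to 195 CPM in exposed livers and 158 to 181 CPM in controls (edgeR adjusted p = 0.767). Prdx4, of the endoplasmic reticulum, averaged 102 ± 19.4 CPM in exposed livers and 124 ± 14.7 CPM in controls (edgeR adjusted p = 0.580).

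Of 14 thioredoxin and glutaredoxin genes tested, 2 were higher and 0 lower at an unadjusted p under 0.05, beside 6.11% and 6.97% of all genes. The most abundant per length were Msrb1, a methionine sulfoxide reductase (log2 fold change 0.12 ± 0.18), Txn1, thioredoxin (-0.30 ± 0.23), and Glrx5, a mitochondrial glutaredoxin (0.38 ± 0.20). Of 13 genes of glutathione synthesis, recycling and NADPH supply, 1 was higher and 0 lower at that p, beside the same shares of all genes. The most abundant were Slc25a39, a mitochondrial glutathione importer (-0.0044 ± 0.19), Gclm, the modifier subunit of glutamate-cysteine ligase (0.0051 ± 0.21), and Idh1, isocitrate dehydrogenase (0.10 ± 0.18). The smallest edgeR adjusted p among these 6 was 0.436, for Glrx5.

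Copper, manganese and iron supply had 0 of 9 tested genes at an unadjusted p under 0.05, beside 13.1% of all genes. Ccs, the chaperone that loads copper into Sod1, had 276, 198 and 265 CPM in exposed livers, against 417, 285 and 277 CPM in control livers, just without overlap (log2 fold change -0.40 ± 0.22, edgeR adjusted p = 0.450). Atox1, which hands copper to the pumps of the secretory path and so toward Sod3, lay the other way, at 207 ± 5.33 and 168 ± 21.9 CPM with exposed livers given first (0.30 ± 0.18, adjusted p = 0.515). Cp, ceruloplasmin, the copper oxidase of plasma, had -0.34 ± 0.21 (adjusted p = 0.513). For selenium supply and other selenoproteins, 1 of 12 was higher and 2 lower at that p, beside 6.11% and 6.97% of all genes. Dio1, the liver deiodinase (0.54 ± 0.24), Selenok (-0.32 ± 0.21) and Selenos (0.04 ± 0.20), both of the endoplasmic reticulum, were the most abundant of those with a row.

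Oxidases that make superoxide or peroxide had 3 of 24 higher and 5 lower at an unadjusted p under 0.05, beside 13.1% of all genes. Without overlap were 2 higher and 4 lower, beside 17.7% of all genes. Cyp2e1, a cytochrome P450 that leaks reduced oxygen, was the most abundant, with 18740, 20992 and 19552 CPM in exposed livers, against 6245, 9720 and 12587 CPM in control livers (log2 fold change 1.05 ± 0.25, edgeR adjusted p = 0.151). Uox, the peroxisomal urate oxidase, had 0.33 ± 0.22 (adjusted p = 0.550). Among peroxisomal import genes, 2 of 10 were higher and 0 lower at an unadjusted p under 0.05, beside 6.11% and 6.97% of all genes. The most abundant were Pex6 (-0.25 ± 0.20), an ATPase that recycles the import receptor, Pex5 (-0.06 ± 0.19), the receptor that brings catalase into peroxisomes, and Pex7 (0.52 ± 0.18, adjusted p = 0.282), the receptor for the other class of signal.

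Markers of other liver cells are given beside Sod3. Summed CPM of 10 of 10 endothelial markers was 196 to 387 in exposed livers and 384 to 440 in controls, and of 12 of 12 stellate, fibroblast and smooth muscle markers 135 to 231 and 224 to 269, exposed livers given first; no marker of either list was at 0. Summed CPM of 11 of 12 macrophage markers with a row was 268 to 384 in exposed livers, against 888, 830 and 248 in control replicates 1 to 3. In control replicate 3 macrophage markers were below every exposed library, and Sod3 was above every exposed library. Among the tested markers, 9 of 10 endothelial and 10 of 12 stellate, fibroblast and smooth muscle genes had a negative log2 fold change, with medians of -0.40 and -0.24 beside -0.03 over all genes. At an unadjusted p under 0.05, 3 and 2 of them were lower and 0 higher, beside 6.97% and 6.11% of all genes. After adjustment 0 passed. Macrophage markers had a negative log2 fold change in 11 of 11 tested, with a median of -1.04. Of these, 5 were lower and 0 higher at that p, and 0 passed after adjustment. Colec11, a collectin used as a stellate cell marker, had 15.7, 15.6 and 19.6 CPM in exposed livers, against 34.6, 29.5 and 34.7 CPM in control livers (log2 fold change -0.95 ± 0.21, edgeR adjusted p = 0.129). Its groups did not overlap. This held for 1 of the 12 tested markers of its list, beside 17.7% of all genes. Clec4g, a lectin of sinusoidal endothelium, had 42.7, 20.3 and 53.3 CPM in exposed livers, against 69.96, 69.9 and 67.8 CPM in control livers (-0.84 ± 0.29, edgeR adjusted p = 0.281). Stab1, a scavenger receptor of the same cells, had 75.7, 41.0 and 64.2 CPM in exposed livers, against 93.98, 81.4 and 86.1 CPM in control livers (-0.53 ± 0.22, edgeR adjusted p = 0.350). Neither overlapped between the groups, which held for 2 of the 10 tested endothelial markers, beside 17.7% of all genes. Of 11 tested macrophage markers, 0 were without overlap. Colec11, Clec4g and Stab1 were named after their values were seen. In exposed replicate 3 summed endothelial markers were at 387 CPM, within the control range, and Sod3 was at 19.2 CPM. The part of endothelial, stromal and macrophage markers, and of interferon-stimulated genes, in the Sod3 result was not tested.

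**Figure D5:**
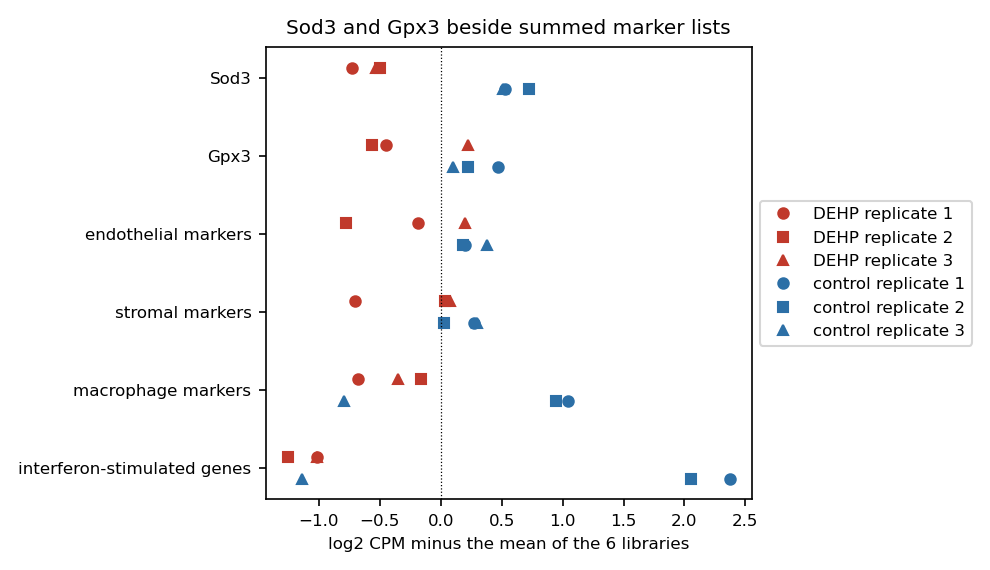
Log2 CPM of Sod3 and Gpx3 and log2 summed CPM of 3 marker lists and of interferon-stimulated genes, each minus its mean over the 6 libraries (x axis), with exposed livers in red above controls in blue and symbols for replicates. Control replicate 3 lies with the exposed livers for macrophage markers and interferon-stimulated genes and with the other controls for Sod3.

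Other cell types were scarce, or their summed markers showed no split by group. Red cell markers with a row, 4 of 8, summed to 39.9 to 49.7 CPM in exposed livers and 25.6 to 50.4 CPM in controls. Nearly all of it was Alas2, the erythroid heme enzyme, and Hba-a2, Hbb-bs, Hbb-bt and Ahsp had no row. Hba-a1 held 3 to 75 counts, lower in exposed livers (log2 fold change -2.71 ± 0.72, edgeR adjusted p = 0.170). Its groups did not overlap, beside 17.7% of all genes. Adipocyte markers, 8 of 8 with a row and Lep at 0, summed to 21.9 to 54.6 CPM in exposed livers and 14.5 to 28.4 CPM in controls. Lymphocyte markers (10 of 10, none at 0) summed to 4.97 to 17.1 CPM in exposed livers and 6.52 to 8.02 CPM in controls. Neutrophil markers (8 of 8, Ly6g at 0) summed to 3.37 to 4.38 CPM in exposed livers and 2.92 to 10.9 CPM in controls. Pancreatic acinar markers (6 of 8 with a row, Prss2, Cpa1 and Pnlip at 0) summed to 11.6 to 16.9 and 12.1 to 18.4 CPM, exposed livers given first. Hepatocyte markers (10 of 11, none at 0) summed to 112050 to 139750 CPM in exposed livers and 126320 to 163180 CPM in controls.

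Over the 6 libraries, the genes with at least 5 CPM on average whose log2 CPM profile lay nearest to that of Sod3 were Abr, Entpd6 and Tha1, at root mean square distances of 0.14, 0.16 and 0.17 on the log2 scale. Abr, which encodes a GTPase-activating protein, had 3.75, 4.10 and 3.40 CPM in exposed livers, against 8.22, 8.14 and 7.18 CPM in control livers (edgeR adjusted p = 0.218). Entpd6, a nucleoside diphosphatase, averaged 5.46 ± 0.772 and 10.8 ± 1.12 CPM, and Tha1, described in the table as a threonine aldolase, 7.29 ± 0.813 and 15.4 ± 2.96 CPM, exposed livers given first (SD, n = 3 each; edgeR adjusted p = 0.208 and 0.166). None of these 3 passed, and they were selected by the profile itself.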

How the data were processed

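Values are the whole-number counts per gene that the authors deposited, with 1 column per library and gene lengths and descriptions in the same table. GRCm38.p6 is the build in the submitters' processing notes, but the deposited row positions differ from it. The Gpx1 row spans chromosome 9 from 113285315 to 113286755, and on GRCm38 its selenocysteine codon starts at 108339451. The sequences shown above are on GRCm38 and do not share coordinates with the deposited rows. The alignment program, the counting program and the strand setting were not given by the sources used here. The 1284 rows without a gene name, 2.73% to 4.28% of counts, stayed out of library sizes and tests. The test was edgeR 4.0.16 (R 4.3.3) with filterByExpr (minimum count 10), TMM scaling, robust quasi-likelihood test of DEHP against control with no covariate, two-sided, Benjamini-Hochberg adjustment over 12468 genes, threshold 0.05. Standard errors derive from the F statistic, and 95% intervals from these and the t distribution. CPM of single genes use TMM-scaled totals of the tested genes; summed CPM of lists and TPM use all named rows.

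The enzymes, the gene lists and the named genes (all members, otherwise genes past the threshold or the 3 most abundant of a pathway list, and the 3 nearest to Sod3) were chosen with earlier results of these data known. A few genes of these lists were named after their values were seen: Colec11, Clec4g, Stab1, Alas2, Hba-a1, Nnt, Msra, Scly, Xdh, Cyba and Ncf1. List symbols without a row were matched through RefSeq synonyms (5 genes, all selenoproteins). Alternatives were RLE scaling, other filters, DESeq2 1.42.0, limma-voom (limma 3.58.1), a non-robust fit, the replicate number as a block, other row sets and each library left out. No pair of libraries within a group agreed within counting noise (lowest chi-square over its degrees of freedom 31.1). All 6 columns were used. Of the 6 class quantities over which exact p-values were adjusted, 1 is not reported here, nor is 1 marker list.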

Additional observations from a re-analysis of the deposited data

How the results depend on the processing

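The number of genes past the threshold was 9 with all libraries and edgeR, 496 with no filter, 261 with DESeq2, 2 with limma-voom and 0 without control replicates 1 and 2 together (edgeR, 642 at an unadjusted p under 0.05); leaving out 1 library gave 5 to 400, the highest without control replicate 3. Members past it numbered 1 with all libraries, 2 with no filter or DESeq2 (Sod3 and Gpx1), and 0 with limma-voom, the non-robust fit, the replicate block, unnamed rows added or control replicates 1 and 2 left out together; leaving out 1 library gave 0 to 1. With the replicate block, the value for Sod3 was -1.17 on the log2 scale (edgeR adjusted p = 0.144). Same-numbered libraries shared only a number: the correlations of their deviations from the group means were -0.02, 0.06 and -0.03 for numbers 1 to 3. The sign of Prdx5 turned to 0.012 without exposed replicate 2, 0.071 without control replicate 1 and 0.054 without control replicates 1 and 2, and that of Sod1 to -0.076 without control replicate 2; the cause was not tested. With 1 library left out, Prdx5 ran from -0.12 to 0.071 and Sod1 from -0.076 to 0.25. The log2 difference of the Sod1 and Sod3 sum ran from -0.047 to 0.20 with 1 library left out (-0.047 without control replicate 2, -0.028 without control replicate 3). With 1 library left out or CPM in place of TPM, the other class quantities given above kept their sign. Sod3 and Gpx3, at 107 to 577 counts a library, are the members with the fewest counts. The SE of the log2 fold change ran from 0.19 for Prdx5 to 0.26 for Gpx3, with 0.19 for Sod3.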

Other observations

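Within the pathway lists, a few genes outside the most abundant were looked at after their values were seen, and none passed the adjusted threshold. Nnt, the mitochondrial transhydrogenase that makes NADPH for glutathione and thioredoxin recycling, had 51.2, 61.9 and 55.0 CPM in exposed livers, against 25.9, 37.6 and 45.1 CPM in control livers (log2 fold change 0.63 ± 0.22, edgeR adjusted p = 0.272). Msra, which repairs oxidised methionine, averaged 203 ± 7.14 CPM in exposed livers and 148 ± 4.13 CPM in controls (SD, n = 3 each; log2 fold change 0.46 ± 0.18, edgeR adjusted p = 0.317). Both had no overlap between the groups. In the list of Nnt 3 of 13 tested genes were higher without overlap, and in that of Msra 2 of 14. In both lists 0 were lower without overlap. Over all genes these shares were 9.17% and 8.57%. Scly, which frees selenium from selenocysteine for reuse, lay the other way, at 64.9 ± 9.40 CPM in exposed livers and 98.05 ± 21.05 CPM in controls (-0.60 ± 0.21, edgeR adjusted p = 0.282).

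Xdh, xanthine dehydrogenase, whose oxidase form makes superoxide, had 84.7, 64.7 and 88.9 CPM in exposed livers, against 222, 244 and 92.1 CPM in control livers (log2 fold change -1.23 ± 0.32, edgeR adjusted p = 0.191). Control replicate 3 was close to the exposed livers and the other controls were far above. Cyba and Ncf1 encode subunits of the phagocyte NADPH oxidase. Cyba had 9.52, 10.8 and 9.34 CPM in exposed livers, against 38.1, 25.5 and 11.96 CPM in control livers, and Ncf1 had 2.23, 3.49 and 3.99 CPM in exposed livers, against 11.9, 7.19 and 4.08 CPM in control livers. Both were highest in control replicates 1 and 2, which also held the high macrophage markers and interferon-stimulated genes; the part of these in the values was not tested.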
